A study of Mus musculus with 36 samples.

Results

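The expression of 9 genes of the BMP and activin pathways was followed in mouse pancreatic fibroblasts grown alone or with pancreatic tumour cells. The genes were the BMP ligands Bmp2 and Bmp4, the BMP antagonist Grem1, the activin subunit gene Inhba, the activin antagonist Fst, and the pathway targets Id1, Id2, Id3 and Smad6. They were chosen by name and matched 9 of the 39017 rows of the deposited count table, 1 row each, and all 9 passed the filter on low counts that left 14439 genes for testing. The fibroblasts were of the C57BL/6 strain, and 36 poly(A) RNA-seq libraries fell into 9 groups of 4. In 8 groups the cells had been in direct co-culture for 48 h with one tumour line, and GFP carried by the tumour cells was then used to sort the populations apart. These lines were the tumour sub-clones E, H, K, M, N, T and V, and KPC1, a name that the labels do not explain. The ninth group was fibroblasts in mono-culture, and whether these cells also went through the sorter is not given in the sources used here. Each clone is a single line, the age and sex of the fibroblast donors are not given, and the labels do not say that the 4 libraries of a group came from separate cultures. The p-values therefore measure the spread between these libraries, which may be technical.

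Bone morphogenetic proteins such as BMP2 and BMP4 are secreted ligands that bind paired serine/threonine kinase receptors, which phosphorylate SMAD1, SMAD5 and SMAD9. These SMADs enter the nucleus with SMAD4 and raise transcription of Id1, Id2 and Id3, whose proteins bind E-proteins and keep them from DNA, and of Smad6, an inhibitory SMAD that damps the signal. Activin A, a dimer of the product of Inhba, signals instead through SMAD2 and SMAD3. Gremlin 1 binds BMPs and follistatin binds activins outside the cell, and fibroblasts are a known source of several of these secreted factors.

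Library totals ran from 12532122 to 21985538 counts. Levels within a gene are given as CPM, the counts of a gene scaled to a common library total after TMM normalisation. The 10 fibroblast markers examined were detected in every group, with a summed level of 10902 to 32116 CPM per library. The 12 epithelial markers summed to 43.7 to 48.1 CPM in mono-culture, nearly all of it Sox9, and 3 of the 12 (Cldn4, Cldn6 and Esrp1) were at 0 there. In the co-cultures that sum was 47.9 to 986 CPM per library, with Krt8 at 7.43, 6.35, 19.9 and 44.4 CPM in clone V and 227, 64.3, 97.6 and 132 CPM in clone T, against at most 0.0914 CPM in mono-culture. In bulk RNA of this kind, fewer cells of a type and less RNA per cell cannot be told apart. The macrophage markers summed to at most 16.2 CPM, the endothelial markers to at most 6.39 CPM and the smooth muscle and pericyte markers to at most 15.9 CPM in any library, and the 3 mesothelial markers to 8.59 to 14.99 CPM in mono-culture and 3.51 to 70.5 CPM in the co-cultures.

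Levels of different genes were compared as deposited RPKM, which divides the depth-scaled reads of a gene by its length in kilobases. Grem1 was abundant throughout, with group means between 34.9 and 154 RPKM, and Id3 spanned the widest range in absolute terms, from 12.9 to 164 RPKM. Id1 lay between 5.50 and 37.5 RPKM, Id2 between 1.73 and 33.5 RPKM, Bmp4 between 8.80 and 26.1 RPKM, and Smad6 between 1.89 and 15.3 RPKM. Inhba (1.15 to 12.2 RPKM), Fst (0.394 to 8.72 RPKM) and Bmp2 (0.0662 to 6.18 RPKM) had the lowest minima and maxima. The median group mean of Smad6 (5.78 RPKM) lay below that of Inhba (6.10 RPKM). By median group mean the BMP antagonist Grem1, at 119 RPKM, stood above both BMP ligand genes, with Bmp4 at 15.8 RPKM and Bmp2 at 0.436 RPKM.

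The first comparison asked whether culture with each tumour line changed these genes. Inhba and Fst rose in all 8 co-cultures, and Grem1 rose in 7 of the 8, the exception being clone M. The 4 target genes did not move one way: Id1 and Id3 rose with clones K, M, N, E and T, Id2 rose with clones K and M, and with clones V and KPC1 both Id2 and Id3 fell. Bmp2 rose with clones N, T and K, and Bmp4 fell with clones M, H, V and KPC1.

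The number of members that passed the edgeR quasi-likelihood test at an adjusted p of 0.05 was highest for clone K, where 8 of 9 passed, all higher, against 10.4% of all genes called higher. With clone M 7 passed, 6 higher and 1 lower, against 12.2% and 10.8% of all genes. With clone N 7 were higher (19.7% of all genes called higher), with clone E 6 were higher (16.5%), and with clone T 6 were higher (3613 of the 14439 genes called higher, 49.8% called in either direction). With clone H 3 were higher and 2 lower, against 27.8% and 26.4% of all genes. With clone V 3 were higher and 4 lower (29.4% and 28.9%), and with KPC1 3 were higher and 3 lower (30.5% and 28.5%). Members called lower were seen with H, V, KPC1 and M, and with H, M and KPC1 their number lay near the share of all genes. With clones K, E, N and T no member was called lower, against 8.69%, 15.5%, 19.2% and 24.7% of all genes. The median log2 fold change of the 9 members was 2.23 with clone K, -0.92 with clone V, -0.02 with clone H and 0.15 with KPC1, while that of all genes tested lay between -0.01 and 0.01. These 8 comparisons share the 4 mono-culture libraries.

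**Figure D1:**
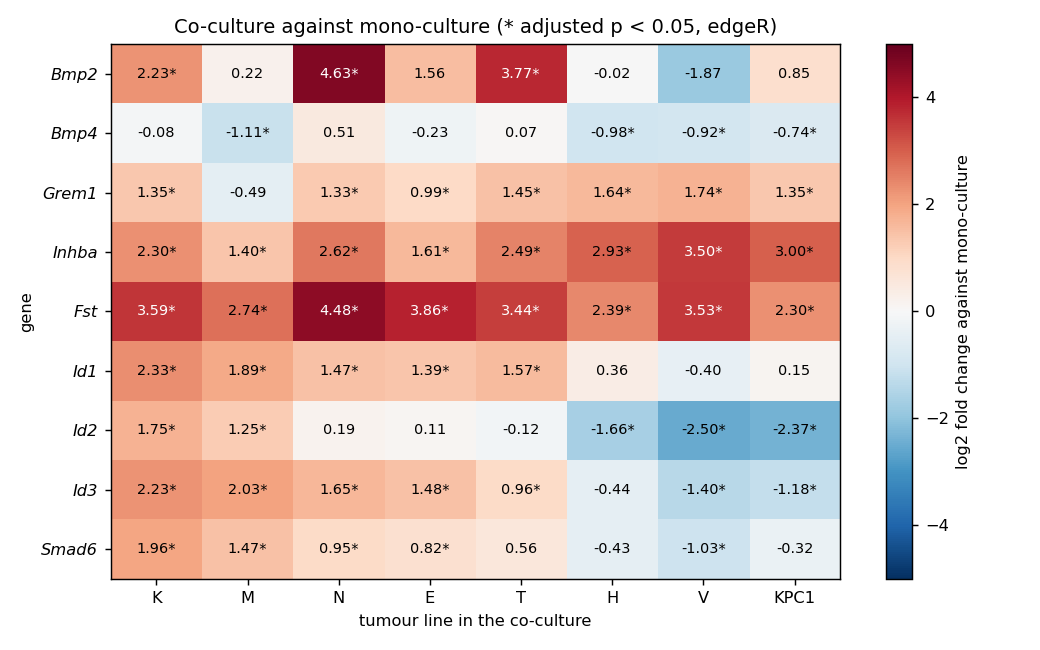
Log2 fold change against mono-culture (colour and number) for the 9 genes (rows) in each of the 8 co-cultures (columns), each from 4 libraries against 4. An asterisk marks an adjusted p under 0.05 in the edgeR test. Inhba and Fst are positive and called in every column, whereas Id2 runs from 1.75 with clone K to -2.50 with clone V.

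Taking the 7 clones together, 7 of the 9 members were higher than in mono-culture and none was lower, against 24.3% of all genes called higher and 24.9% called lower. Fst (log2 fold change 3.43, SE 0.41, adjusted p = 7.2e-08), Inhba (log2 fold change 2.41, SE 0.24, adjusted p = 1.7e-09) and Grem1 (log2 fold change 1.14, SE 0.21, adjusted p = 3.3e-05) rose. Bmp2 rose by 1.50 on the log2 scale (SE 0.54, adjusted p = 0.021), Id1 by 1.23 (SE 0.30, adjusted p = 0.0011), Id3 by 0.93 (SE 0.33, adjusted p = 0.020) and Smad6 by 0.61 (SE 0.25, adjusted p = 0.041). Id2, at -0.14 (SE 0.34, adjusted p = 0.77), and Bmp4, at -0.39 (SE 0.17, adjusted p = 0.057), did not pass. Without mono-culture replicate 1, or without replicate 4, only 4 members passed, since Bmp2, Id3 and Smad6 lost their calls. Smad6 also lost its call without mono-culture replicate 2 (adjusted p = 0.092), clone T replicate 1 (0.0508), clone T replicate 4 (0.0505) or clone V replicate 3 (0.0505). Bmp4 passed, as lower, without clone K replicate 3, clone M replicate 3, clone N replicate 2, clone T replicate 4, clone V replicate 1 or clone V replicate 4 (adjusted p from 0.025 to 0.047). After the most epithelial library of each co-culture was removed, Bmp2 (1.26, adjusted p = 0.055) and Smad6 (0.54, adjusted p = 0.083) no longer passed, and Bmp4 did (-0.49, adjusted p = 0.014).

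The pathway targets Id1, Id2, Id3 and Smad6 shared the ends of their order across the 9 cultures. Each was highest with clone K and next with clone M, and each was lowest with clone V. Between these ends the orders differed, since clone T ranked 3 for Id1, 5 for Id3 and Smad6 and 6 for Id2, and mono-culture ranked 8 for Id1, 5 for Id2 and 6 for Id3 and Smad6. Id1 (ENSMUSG00000042745, chr2:152736251-152737410 in GRCm38), Id2 (ENSMUSG00000020644, chr12:25093799-25097140) and Id3 (ENSMUSG00000007872, chr4:136143497-136145755) are compact genes encoding inhibitors of DNA binding. Smad6 (ENSMUSG00000036867, chr9:63953076-64022059) encodes the inhibitory SMAD of the BMP branch.

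RefSeq windows before the transcription start were at hand for 6 of the 9 genes, Bmp4, Grem1, Inhba, Id2, Id3 and Smad6; Bmp2, Fst and Id1 had no entry. The 250 bases before the start (GRCm38.p6, shown 5′ to 3′ on the strand of the gene) are given for Id2 and Smad6, which moved together, and for Inhba, which moved otherwise. Capitals mark matches, on either strand, to GGCGCC or GGAGCC, letters of the GC-rich elements to which BMP-activated SMADs are known to bind.
Id2 (chr12:25096093-25096342, minus strand): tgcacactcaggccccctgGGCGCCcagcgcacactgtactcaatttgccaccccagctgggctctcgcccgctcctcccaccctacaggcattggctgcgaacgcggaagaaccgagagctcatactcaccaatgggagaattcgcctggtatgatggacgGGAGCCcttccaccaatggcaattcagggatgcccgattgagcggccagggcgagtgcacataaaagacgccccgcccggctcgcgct
Smad6 (chr9:64022060-64022309, minus strand): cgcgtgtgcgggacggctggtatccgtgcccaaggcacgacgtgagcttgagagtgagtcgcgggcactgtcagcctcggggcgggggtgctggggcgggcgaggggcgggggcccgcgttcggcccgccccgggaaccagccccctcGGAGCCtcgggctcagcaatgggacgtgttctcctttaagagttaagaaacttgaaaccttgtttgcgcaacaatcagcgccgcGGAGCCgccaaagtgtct
Inhba (chr13:16011601-16011850, plus strand): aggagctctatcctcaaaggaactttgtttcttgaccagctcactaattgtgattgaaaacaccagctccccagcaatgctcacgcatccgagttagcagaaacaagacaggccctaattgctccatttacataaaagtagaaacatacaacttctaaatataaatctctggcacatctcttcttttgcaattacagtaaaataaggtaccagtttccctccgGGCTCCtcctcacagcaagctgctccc
Id2 held GGCGCC at -231 and GGAGCC at -88 from the start, Smad6 held GGAGCC at -102 and -18, and Inhba held it once, at -27. Of the windows not shown, Id3 held GGAGCC once, at -187, and no GGCGCC, the same tally as Inhba, although it moved with Id2 and Smad6. Grem1 held GGCGCC once, at -78, and Bmp4 held GGAGCC once, at -32. The matches thus did not separate the genes that moved together from the others. GGCGCC was present in 9.59% and GGAGCC in 25.98% of the 32841 windows of the same length, so that a match to the second is common. None of the 6 windows held GTCTAGAC, the palindromic SMAD element, found in 0.167% of windows. GC content was 62.8% for Id2, 66.8% for Smad6 and 43.2% for Inhba, against a median of 52.4% over all windows. It was 62.8% for Id3, 63.2% for Bmp4 and 72% for Grem1. In the GENCODE annotation the Id2 window lies within the span of a longer Id2 transcript, and the Id3 window lies within the span of the Id3 gene. A match of letters is a description and does not show binding.

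Id3 was at 40.2, 55.7, 43.04 and 38.9 CPM in the 4 mono-culture libraries (replicates 1 to 4, as in all such lists). It was at 273, 256, 141 and 163 CPM with clone K and at 189.9, 207, 150.3 and 179 CPM with clone M. Every library of both co-cultures lay above every mono-culture library. Over all genes tested, the 4 libraries of a co-culture lay above all 4 of mono-culture for 14.2% (clone K) to 27.4% (KPC1) of genes, and below all 4 for 14.6% (clone K) to 26.4% (clone V). The log2 fold changes were 2.23 (SE 0.42, adjusted p = 0.00026) and 2.03 (SE 0.41, adjusted p = 0.00053). With clone V Id3 was at 11.6, 13.8, 15.3 and 26.7 CPM and with KPC1 at 18.3, 9.83, 22.8 and 27.7 CPM, all below mono-culture, with log2 fold changes of -1.40 (SE 0.42, adjusted p = 0.0052) and -1.18 (SE 0.42, adjusted p = 0.016). The call for KPC1 was lost without KPC1 replicate 2 (-0.95, adjusted p = 0.069). Id3 also rose with clones N (log2 fold change 1.65, SE 0.41, adjusted p = 0.0019) and E (1.48, SE 0.41, adjusted p = 0.0060). Its rise with clone T (0.96, SE 0.40, adjusted p = 0.049) lay at the threshold and was lost in 22 of the 36 refits that left out 1 library, down to 0.63 (adjusted p = 0.22) without clone T replicate 1. It was lost too without the most epithelial library of each co-culture (0.63, adjusted p = 0.23). With clone H Id3 was at 32.8 ± 3.09 CPM (SD, n = 4), a log2 fold change of -0.44 that did not pass (adjusted p = 0.37). In an edgeR fit of only the 8 libraries compared it passed (-0.44, adjusted p = 0.0068).

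Id2 was at 10.4, 16.1, 11.7 and 11.7 CPM in mono-culture. With clone K it was at 54.1, 47.3, 24.4 and 42.5 CPM and with clone M at 34.7, 27.03, 25.6 and 31.6 CPM, again above every mono-culture library. The rise with clone K was 1.75 on the log2 scale (SE 0.46, adjusted p = 0.0064), and that with clone M, 1.25 (SE 0.46, adjusted p = 0.045), was lost in 18 of 36 refits without 1 library, with adjusted p up to 0.11, and without the most epithelial library of each co-culture (1.31, adjusted p = 0.065). In the other direction Id2 was at 3.89, 3.89, 3.51 and 4.45 CPM with clone H. It was at 1.17, 1.396, 1.96 and 4.43 CPM with clone V and at 1.69, 1.09, 1.85 and 4.96 CPM with KPC1. All 12 of these libraries lay below the mono-culture. Id2 fell by 1.66 with clone H (SE 0.49, adjusted p = 0.0050), by 2.50 with clone V (SE 0.52, adjusted p = 0.00014) and by 2.37 with KPC1 (SE 0.52, adjusted p = 0.00024) on the log2 scale, and without KPC1 replicate 4, its highest library, the last value was -3.003. With clones E, N and T the libraries of Id2 spread across the mono-culture level, at 18.3, 19.4, 5.46 and 10.4 CPM, 20.8, 18.1, 4.43 and 13.4 CPM and 14.8, 3.24, 6.88 and 21.1 CPM, and no difference passed the test (adjusted p = 0.89, 0.77 and 0.85).

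Id1 was at 5.67, 11.4, 10.4 and 6.99 CPM in mono-culture. With clone K it was at 58.7, 49.3, 29.3 and 35.4 CPM and with clone M at 34.99, 27.5, 33.6 and 31.3 CPM, and no library overlapped with mono-culture. It rose by 2.33 (SE 0.37, adjusted p = 3.2e-05) and 1.89 (SE 0.37, adjusted p = 0.00030) on the log2 scale in these co-cultures. Smaller rises with clones T, N and E lay between 1.39 and 1.57 (adjusted p from 0.00070 to 0.0040). With clones H and V and with KPC1 the level was 11.1 ± 1.705, 6.52 ± 1.96 and 9.49 ± 2.65 CPM (SD, n = 4 each), and none of the 3 passed the test (adjusted p = 0.42, 0.38 and 0.75). A fall with V and KPC1 thus passed the test for Id2 and Id3 but not for Id1. With clone V Id1 still had its lowest mean of all cultures (log2 fold change -0.40, SE 0.38). Whether its change differed from those of Id2 and Id3 was not tested.

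Smad6 was at 10.3, 11.3, 13.3 and 11.7 CPM in mono-culture and at 40.6, 56.6, 49.2 and 35.1 CPM with clone K. The rise was 1.96 on the log2 scale (SE 0.32, adjusted p = 3.7e-05), and with clone M, at 36.2, 31.9, 28.1 and 33.1 CPM, it was 1.47 (SE 0.31, adjusted p = 0.00082). With clone V the libraries had 1.17, 5.97, 6.43 and 9.39 CPM, and Smad6 fell by 1.03 (SE 0.33, adjusted p = 0.0082). Without clone V replicate 1, its lowest library, the value was -0.68 and the call held. In an edgeR fit of only the 8 libraries compared, clone V did not pass (-1.04, adjusted p = 0.052). In the main test the inhibitory SMAD was thus called in both directions, as lower with clone V only. Rises with clone N (0.95, SE 0.31, adjusted p = 0.016) and clone E (0.82, SE 0.31, adjusted p = 0.044) were lost when single libraries were left out. Without clone N replicate 2 the first was 0.76 (adjusted p = 0.074), without mono-culture replicate 1 it was 0.87 (adjusted p = 0.052), and without clone E replicate 2 the second was 0.53 (adjusted p = 0.22), 1 of 13 refits without 1 library in which it was lost. Without the most epithelial library of each co-culture neither passed, at 0.74 (adjusted p = 0.092) with clone N and 0.80 (adjusted p = 0.081) with clone E. The values for clone T (0.56, which passed without clone V replicate 1 at an adjusted p of 0.044), KPC1 (-0.32) and clone H (-0.43) did not pass the test. In edgeR fits of only the 8 libraries compared, clone H (-0.44, adjusted p = 0.013) and clone T (0.57, adjusted p = 0.049) passed.

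**Figure D2:**
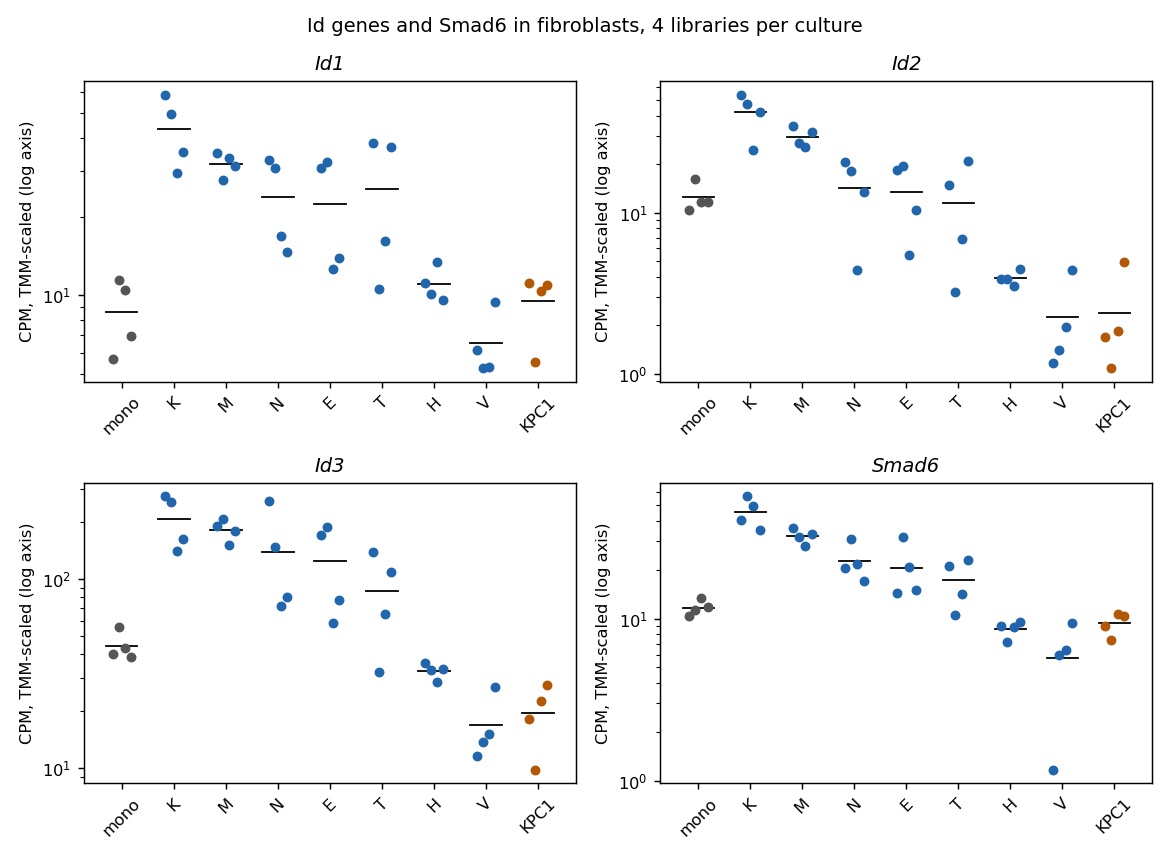
Level of Id1, Id2, Id3 and Smad6 (CPM, log axis) in each library, by culture; bars are means of 4 libraries, grey is mono-culture, blue the 7 clones and orange KPC1. All 4 panels are highest at clone K, followed by clone M, and lowest at clone V, where Id3 lay between 11.6 and 26.7 CPM.

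Neighbours in the order of each target gene mostly did not differ beyond the spread. Clones K and M were separated for none of the 4 genes (adjusted p = 0.61 for Id1, 0.65 for Id2, 0.87 for Id3 and 0.47 for Smad6). Clones V and H were likewise not separated (adjusted p = 0.42, 0.55, 0.36 and 0.48). Few genes of any kind were called in these pairs, 2.24% between clones K and M and 0.388% between clones V and H. Steps that passed were few: clone E above clone H for Id1 (log2 difference 1.02, SE 0.36, adjusted p = 0.028), clone T above clone H for Id2 (1.54, SE 0.49, adjusted p = 0.048) and clone T above mono-culture for Id3. Between the ends of the orders the differences were large, with clone V below clone K by a log2 fold change of -2.73 for Id1, -4.25 for Id2, -3.63 for Id3 and -2.99 for Smad6 (SE 0.33 to 0.53, adjusted p from 2.1e-08 to 6.1e-07). In that pair of co-cultures 54.8% of all genes were called.

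Within clones E, N and T the 4 libraries of one group differed widely, and the 3 Id genes differed in the same libraries. With clone T, Id1 was at 38.3, 10.5, 16.2 and 36.9 CPM and Id3 at 139, 32.1, 65.3 and 109 CPM. Replicate 2 was the lowest for Id1, Id2, Id3 and Smad6, and it also had the lowest epithelial marker sum of the 4 (411 CPM, against 527 to 986 CPM). With clone E, Id1 was at 30.6, 32.3, 12.6 and 13.9 CPM and Id3 at 171, 189, 58.6 and 77.4 CPM, so that replicates 1 and 2 stood above replicates 3 and 4, and with clone N, Id3 at 258, 147, 72.3 and 79.96 CPM was split the same way. There the epithelial sums were 382, 295, 568 and 387 CPM for clone E and 486, 764, 599 and 621 CPM for clone N, and in both the library with the lowest sum was not among those low in Id3. The part of these marker levels in the results was not tested.

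Of the BMP ligand genes, Bmp2 (ENSMUSG00000027358, chr2:133552159-133562885) rose steeply in some co-cultures from a low level, and Bmp4 (ENSMUSG00000021835, chr14:46383520-46390669) fell in others from a moderate one. Both had the highest mean with clone N and the next with clone T. Clones N and T were not separated for either gene (adjusted p = 0.31 for Bmp2 and 0.25 for Bmp4, edgeR). Of all genes, 8.53% were called in that pair. Bmp2 was at 0.826, 0.9903, 0.989 and 0.777 CPM in mono-culture, which is 13 to 18 counts per library. With clone N it was at 8.46, 35.3, 27.2 and 17.7 CPM and with clone T at 18.3, 3.901, 7.37 and 19.5 CPM. All 8 libraries stood above the mono-culture, with log2 fold changes of 4.63 (SE 0.63, adjusted p = 1.1e-06) and 3.77 (SE 0.62, adjusted p = 1.1e-05), or 24.7-fold and 13.7-fold. With clone K, at 1.697, 0.52002, 7.88 and 6.52 CPM, the rise of 2.23 (SE 0.62, adjusted p = 0.010) rested on replicates 3 and 4, and without replicate 3 it was 1.74 (adjusted p = 0.067). On the log2(RPKM + 1) scale it was 0.66 and did not pass (adjusted p = 0.13). Clone E, at 2.01, 2.54, 3.62 and 2.42 CPM, had every library above mono-culture but missed the threshold in edgeR (1.56, SE 0.63, adjusted p = 0.058). It passed with DESeq2 (1.56, adjusted p = 0.025), in a fit of only the 8 libraries compared (1.57, adjusted p = 0.00047), and without clone K replicate 2 (adjusted p = 0.032), clone K replicate 3 (0.049), clone N replicate 1 (0.049) or clone T replicate 2 (0.044).

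Clone V lay at the other end, with 0.153, 0.289, 0.163 and 0.359 CPM, or 3 to 6 counts per library, at or just above the 3 counts taken as the floor. Its log2 fold change of -1.87 (SE 0.85, adjusted p = 0.059) did not pass the edgeR test and passed with DESeq2 (-1.89, adjusted p = 0.0089). In edgeR it passed with no scaling beyond the library total (-1.96, adjusted p = 0.046), in a fit of only 8 libraries (-1.88, adjusted p = 0.00095), and without clone K replicate 2 (adjusted p = 0.033), clone N replicate 1 (0.049) or clone T replicate 2 (0.047). Clones M and H and KPC1 had group means of 0.890 to 1.60 CPM and did not pass. Bmp2 also varied with the epithelial markers from library to library. The library with the lowest summed epithelial markers was the lowest in Bmp2 in 6 of 8 co-cultures, all but E and V, and the library with the highest sum was the highest in Bmp2 in 5, which were E, H, N, V and KPC1. With KPC1, Bmp2 was at 3.16, 0.784, 1.29 and 1.14 CPM and Krt8 at 123, 32.6, 73.7 and 57.8 CPM, in the same order in all 4 libraries. In clone K, Krt8 was at 23.1, 7.8003, 105 and 136 CPM beside the Bmp2 values above, so that the 2 libraries high in Krt8 were the 2 high in Bmp2. In clone T, where Krt8 was at 227, 64.3, 97.6 and 132 CPM, replicate 2 was the lowest for both genes. Clone M, by contrast, had Krt8 up to 212 CPM with Bmp2 at no more than 1.37 CPM. Without the most epithelial library of each co-culture the log2 fold change of Bmp2 was 4.29 with clone N, 3.52 with clone T and 1.91 with clone K, all still past the test. Bmp2 RNA of tumour cells that had passed the GFP gate and Bmp2 RNA of the fibroblasts cannot be told apart in these libraries.

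**Figure D3:**
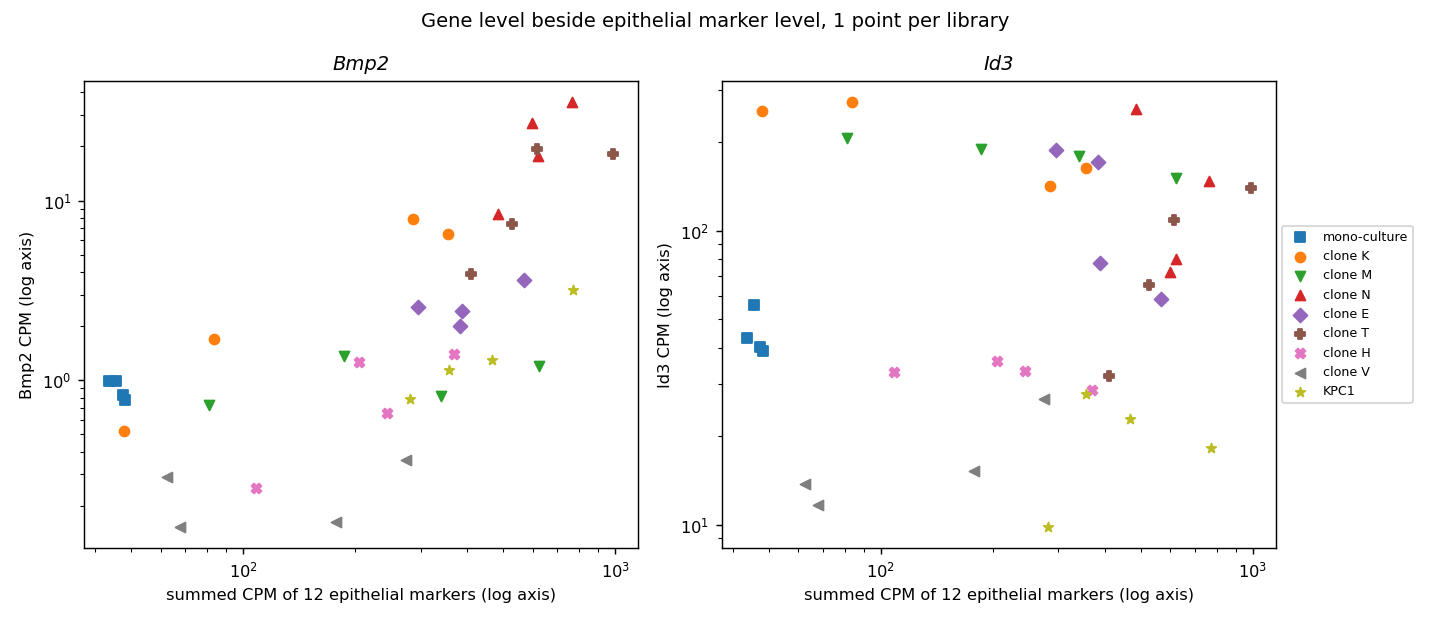
Level of Bmp2 (left) and Id3 (right) in CPM against the summed CPM of 12 epithelial markers, 1 point per library, log axes, symbols by culture. High Bmp2 values sit at high marker sums in clones K, N and T, whereas clone M reaches a marker sum of 623 CPM with Bmp2 at 1.20 CPM; Id3 of clone K was 256 CPM at a sum of 47.9 CPM.

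Bmp4 was at 33.3, 41.6, 36.96 and 40.2 CPM in mono-culture. With clone H it was at 19.3, 18.2, 19.6 and 20.2 CPM and with clone M at 12.7, 16.9, 24.1 and 16.9 CPM. With clone V it was at 10.1, 22.4, 18.4 and 29.4 CPM and with KPC1 at 27.6, 19.4, 23.5 and 20.5 CPM. Every one of these 16 libraries lay below the lowest mono-culture library. Bmp4 fell on the log2 scale by 0.98 with clone H (SE 0.24, adjusted p = 0.00085), 1.11 with clone M (SE 0.24, adjusted p = 0.00088), 0.92 with clone V (SE 0.24, adjusted p = 0.0012) and 0.74 with KPC1 (SE 0.23, adjusted p = 0.0075). With clone N Bmp4 was at 49.9, 68.2, 49.02 and 49.2 CPM, above every mono-culture library, but the difference of 0.51 (SE 0.23, adjusted p = 0.081) did not pass. It passed in an edgeR fit of only the 8 libraries compared (0.52, adjusted p = 0.0044). Levels with clones T, K and E were 40.01 ± 8.56, 36.02 ± 11.6 and 32.5 ± 7.73 CPM (SD, n = 4 each), against 38.03 ± 3.71 CPM in mono-culture, and did not pass. Genes annotated on the opposite strand of Bmp4, Gm15217 and Gm15222, had at most 4 counts in any library; the strand setting of the counting is not given in the sources used here.

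Inhba (ENSMUSG00000041324, chr13:16011851-16031621) rose in every co-culture, and all 32 co-culture libraries stood above all 4 mono-culture libraries, as for 3.57% of all genes. It was at 4.24, 7.92, 7.76 and 8.27 CPM in mono-culture, with replicate 1 well below the others. The highest level was with clone V, at 76.97, 99.2, 74.7 and 67.8 CPM, an 11.3-fold rise (log2 fold change 3.50, SE 0.28, adjusted p = 3.5e-11). KPC1, at 74.3, 58.5, 54.2 and 38.9 CPM, and clone H, at 57.004, 69.4, 51.6 and 37.1 CPM, followed with 3.002 (SE 0.27, adjusted p = 3.8e-10) and 2.93 (SE 0.27, adjusted p = 1.1e-09). Clones N, T and K lay between 2.30 and 2.62. The smallest rises were with clone E, at 23.6, 26.03, 22.9 and 13.3 CPM, and clone M, at 15.3, 25.3, 14.8 and 19.2 CPM, with log2 fold changes of 1.61 (SE 0.27, adjusted p = 3.7e-05) and 1.40 (SE 0.27, adjusted p = 0.00028). Clone V exceeded clone K by 1.20 (SE 0.25, adjusted p = 0.00014), the reverse of their order for the Id genes. No step between neighbouring co-cultures in the order passed the test, and the step from clone M to mono-culture did. Same-numbered libraries of clones K and E deviated together, and with the replicate number as a block their step, 0.69 in both fits, passed as well (SE 0.21, adjusted p = 0.024, against 0.072 without the block). B230303A05Rik and Gm48444, annotated on the opposite strand of Inhba, are not analysed here.

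Both antagonist genes also rose. Fst (ENSMUSG00000021765, chr13:114452290-114458951), which encodes the activin-binding protein follistatin, was at 0.4404, 1.38, 0.684 and 1.37 CPM in mono-culture, or 8 to 30 counts per library. With clone N it was at 27.9, 23.8, 20.5 and 16.8 CPM, 22.3-fold higher (log2 fold change 4.48, SE 0.47, adjusted p = 1.3e-08). With clone E it was at 13.02, 20.7, 12.1 and 11.9 CPM (log2 fold change 3.86, SE 0.46, adjusted p = 2.8e-07). All 32 co-culture libraries stood above the mono-culture, and the smallest changes, with KPC1 (2.30, SE 0.47, adjusted p = 0.00012) and clone H (2.39, SE 0.47, adjusted p = 8.7e-05), were 4.93-fold and 5.25-fold. Clones K, V, T and M lay between 2.74 and 3.59. In the order of Fst levels the step from KPC1 to mono-culture passed the test and no other step between neighbours did. Gm47040, annotated on the opposite strand of Fst, is not analysed here.

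Grem1 (ENSMUSG00000074934, chr2:113746164-113758646) was at 236, 198, 192 and 161 CPM in mono-culture. It was at 727, 769.6, 648 and 479.7 CPM with clone V and 845, 577, 623 and 406 CPM with clone H, with log2 fold changes of 1.74 (SE 0.25, adjusted p = 9.9e-07) and 1.64 (SE 0.25, adjusted p = 3.2e-06). Rises with clones T, N and K, with KPC1 and with clone E ran from 0.99 to 1.45 (adjusted p from 2.0e-05 to 0.0028). Clone M stood apart, at 132, 135, 126 and 167 CPM, a log2 fold change of -0.49 that did not pass (SE 0.25, adjusted p = 0.16). In an edgeR fit of only the 8 libraries compared it passed, as lower (-0.47, adjusted p = 0.013). Clone M was below clone K by 1.84 (SE 0.25, adjusted p = 8.8e-05), a pair in which only 2.24% of all genes were called. The 2 co-cultures highest in Id genes thus differed in the BMP antagonist, as they did in Bmp4 (-1.03, SE 0.24, adjusted p = 0.014).

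**Figure D4:**
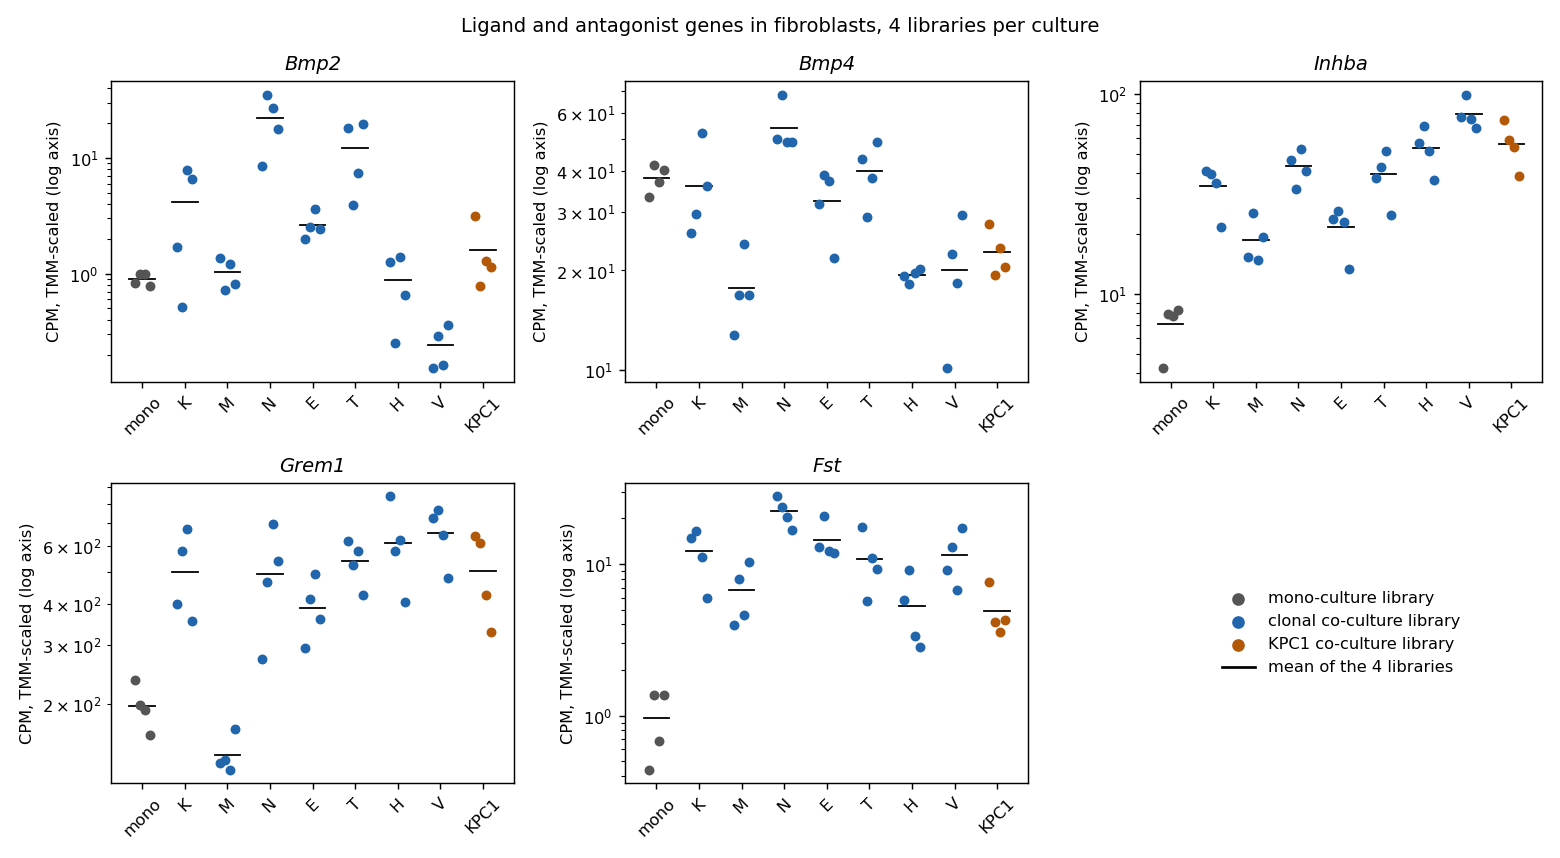
Level of Bmp2, Bmp4, Inhba, Grem1 and Fst (CPM, log axes of different range) in each library, by culture; bars are means of 4 libraries. Inhba and Fst lie above mono-culture in all 32 co-culture libraries, Grem1 of clone M lies between 126 and 167 CPM, and Bmp2 of clone V lies between 0.153 and 0.359 CPM.

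A second question was whether the choice of clone mattered for these genes. An F-test of the 7 clones against each other, without the mono-culture, called 9 of 9 members, where 67.5% of all genes were called. The smallest adjusted p-values were those of Bmp2 (2.1e-09), Smad6 (3.2e-08) and Id2 (1.2e-07). Fst had the largest (0.00042), and its clone means ran from 5.26 ± 2.85 CPM with clone H to 22.3 ± 4.701 CPM with clone N (SD, n = 4 each). Among the 36 pairs of groups, Id2 and Id3 differed in 24 each, Inhba in 23, Smad6 in 22, Bmp2 in 21, Id1 in 20, Bmp4 in 19, Fst in 17 and Grem1 in 16. Over all genes, the share called in a pair had a median of 32.1% and ran from 0.388% for clones V and H to 59.0% for KPC1 and mono-culture. Between V and H no member passed, and between N and E (1.27% of genes called) Bmp2 (3.07, SE 0.56, adjusted p = 0.0025) and Inhba (1.01, SE 0.25, adjusted p = 0.036) did, both higher with clone N.

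KPC1 was then set against the mean of the 7 clones. Of the 9 members 5 were lower and 1 higher, against 18.8% of all genes called lower and 22.3% called higher. Id2 (log2 fold change -2.24, SE 0.45, adjusted p = 0.00024) and Id3 (log2 fold change -2.11, SE 0.37, adjusted p = 5.4e-05) were the furthest below, and without KPC1 replicate 4 the value of Id2 was -2.87. Fst (log2 fold change -1.13, SE 0.32, adjusted p = 0.0056), Id1 (log2 fold change -1.08, SE 0.30, adjusted p = 0.0043) and Smad6 (log2 fold change -0.93, SE 0.26, adjusted p = 0.0046) were also lower. Inhba was higher by 0.60 (SE 0.18, adjusted p = 0.0077), a call lost without KPC1 replicate 1 (0.43, adjusted p = 0.11) and without the most epithelial library of each co-culture (0.36, adjusted p = 0.19). Bmp2, Bmp4 and Grem1 did not pass. For most of these genes KPC1 lay among the clones, since clone V had lower means than KPC1 for Id1, Id2, Id3 and Smad6 and a higher mean for Inhba. For Fst, KPC1 had the lowest mean of the 8 co-cultures, at 4.901 ± 1.82 CPM (SD, n = 4). Between KPC1 and clone V none of the 4 target genes differed (adjusted p = 0.37, 0.91, 0.78 and 0.16). In that pair only 10.7% of all genes were called.

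Across the 9 group means of log2 CPM, the members fell into sets by likeness, given here as a description over 9 points that share libraries and scaling. Id1, Id2, Id3 and Smad6 correlated with each other at r between 0.86 and 0.96. Grem1 and Inhba correlated at 0.83, and Bmp2 with Bmp4 at 0.82. Inhba ran against Id2 at -0.59, and Grem1 against Id2 at -0.56. Bmp2 correlated with the target genes at 0.40 to 0.59 and Bmp4 at 0.32 to 0.41, so neither BMP ligand gene followed the targets as closely as the targets followed each other.

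Of 11695 genes with a mean of at least 2 CPM, the one whose group means were most like those of each member was named by its Pearson r over the 9 groups. These were Tnks1bp1 for Id1 (0.987), Zfp866 for Id2 (0.992), Aox1 for Id3 (0.986), Mdga1 for Smad6 (0.986), Fam107b for Inhba (0.988), Plcl1 for Fst (0.969), Plcxd2 for Grem1 (0.956), Slc27a1 for Bmp2 (0.929) and Cst3 for Bmp4 (0.888). The next in rank for Id2 were Erc1 (0.988) and Nedd4 (0.985), and for Inhba Gatad2b (0.985) and Inpp5a (0.982). Plat, which encodes tissue plasminogen activator, was the second for Fst (0.962). With so few points, high values are common among this many genes.

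Around the members, 77 further genes of the pathway in 7 lists were examined, of which 55 passed the filter. For the mean of the 7 clones 31 of the 55 (56.4%) were called, against 49.2% of all genes. Of these 23 were higher (41.8%) and 8 lower (14.5%), against 24.3% and 24.9% of all genes, and the median log2 fold change of the 55 was 0.16. The F-test among clones called 41 (74.5%), against 67.5% of all genes. The counts by list that follow are for the mean of the clones, to be read beside the 24.3% of all genes called higher and 24.9% called lower. Among the antagonists 3 of 10 were higher and 3 lower, among the receptors and co-receptors 4 of 13 were higher and 3 lower, and among the signal transducers 6 of 10 were higher and none lower. The BMP and GDF ligand genes other than the members were low, 4 of 13 passed the filter, and 2 of these were called lower. Of the 12 further targets, a list that also holds the Notch target Hes1, 7 were higher and none lower. Of 3 other activin class ligands 1 was higher, and of the 3 E-protein genes 2 were higher.

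The further targets included the member of the Id family that was not among the 9. Id4 was at 0.881, 1.93, 1.06 and 1.42 CPM in mono-culture. With clone M it was at 31.7, 31.03, 24.9 and 35.7 CPM and with clone K at 10.9, 25.3, 26.9 and 18.1 CPM. It rose by 4.52 and 3.92 on the log2 scale there, and by 2.64 to 3.54 with clones N, E and T. With clones H and V and with KPC1 it was at 1.37 ± 0.192, 0.857 ± 0.1701 and 2.23 ± 1.05 CPM (SD, n = 4 each) and did not pass. Atoh8, a basic helix-loop-helix gene known to respond to BMP signalling, was at 13.4, 15.6, 11.8 and 16.2 CPM in mono-culture and rose with clones K (1.51) and M (1.36). Its log2 fold change was -2.998 in clone H, -4.37 in clone V and -3.13 in KPC1. In clone V its libraries had 0.153, 0.578, 0.327 and 1.79 CPM, so Atoh8 and Id2 were low in the same 3 co-cultures. Hey1, a Notch and BMP target, rose in all 8 co-cultures, by 3.32 with clone V up to 5.79 with KPC1, from 0.2395 ± 0.127 CPM (SD, n = 4) in mono-culture. Hes1, a Notch target, rose in all 8 by 1.13 to 1.85, with 9.25, 21.7, 52.8 and 8.87 CPM in the mono-culture libraries, of which replicate 3 was the highest. With clones H, K and V and with KPC1 the Hes1 libraries overlapped with those of mono-culture.

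Inhbb, which encodes another activin beta subunit, rose with all 8 lines, by 1.76 with KPC1 to 3.69 with clone N. Chrd, which encodes the BMP antagonist chordin, was lower in all 8 and passed in 7, from -0.77 with clone K to -1.52 with clone V, clone M (-0.54) being the exception. The co-receptor gene Rgmb fell in all 8, by 0.40 to 0.86, and the protease gene Htra1 fell in 7, by 0.38 to 0.85, with clone V at 0.06. Tgfbr3, which encodes betaglycan, fell with clones H (-0.66) and V (-1.07) and KPC1 (-0.59), where Id2 was also lower. Skil, a SMAD co-repressor gene and a known target of activin and TGF-β signalling, rose with 7 lines, by 0.87 with clone K to 1.94 with clone V, and with clone M (0.41) it did not pass. Its highest and lowest co-cultures, V and M, were also those of Inhba.

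**Figure D5:**
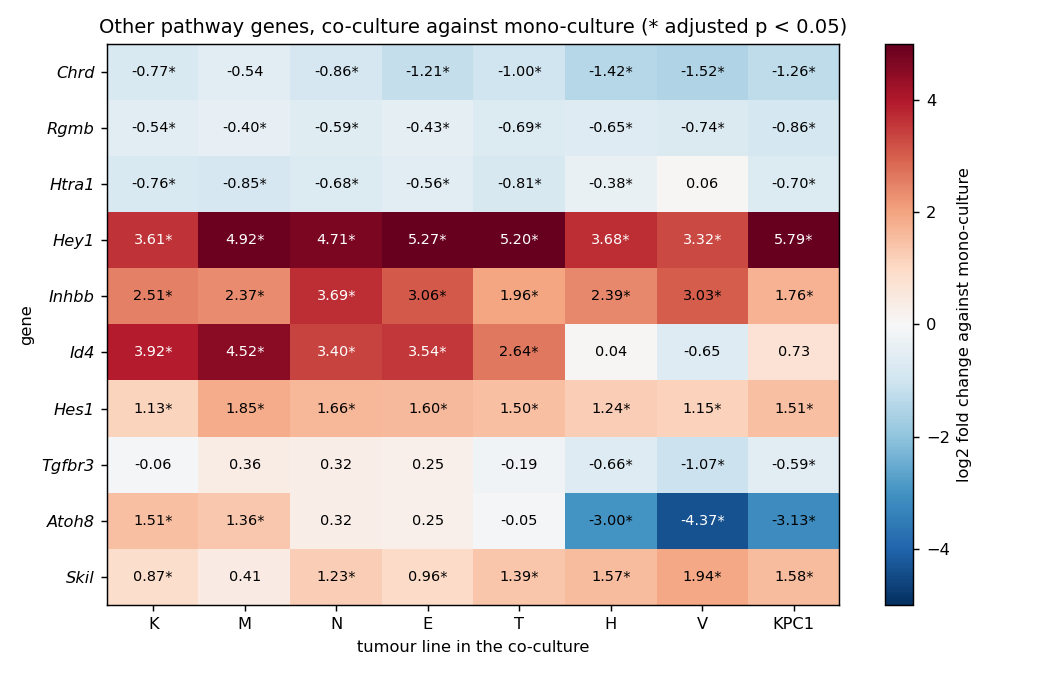
Log2 fold change against mono-culture for 10 other pathway genes named by rule (rows) in the 8 co-cultures (columns), 4 libraries against 4, with an asterisk for an adjusted p under 0.05 in edgeR. Id4 is called higher with clones K, M, N, E and T and not with H, V or KPC1, and Atoh8 runs from 1.51 with clone K to -4.37 with clone V, whereas Hey1, Inhbb and Hes1 are positive in all columns.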

How the data were processed

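Poly(A) RNA, 200 ng a sample, was made into stranded libraries that were read as 76-base paired ends. The deposited table held raw counts (39017 genes, 36 libraries), and the authors also deposited RPKM values per gene. The submitters' processing notes name STAR, featureCounts, edgeR and the build mm10, while their versions, the annotation and the strand setting are not given in the sources used here. Members were matched by symbol, and coordinates were taken from GENCODE M21 (GRCm38, the same assembly as mm10).

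Tests on the counts used edgeR 4.0.16 under R 4.3.3 (filterByExpr on the 9 groups, TMM, robust quasi-likelihood fit of all 36 libraries with 1 coefficient per group), with Benjamini-Hochberg adjustment over the 14439 genes tested and a threshold of 0.05. Each SE is the absolute log2 fold change over the square root of F. The procedure was tested on simulated data. Alternatives were DESeq2 1.42.0, limma 3.58.1 on log2(RPKM + 1) or log2(RPKM + 0.1), other scalings, filters and thresholds, a replicate block, fits of only 8 libraries, and leaving out each library. Removal of the most epithelial library of each co-culture was added after the data had been seen. The members and gene lists were chosen with earlier results of these data known. Pathway genes were named if they had a mean of at least 2 CPM and were among the 5 highest or 5 lowest called changes with the mean of the clones, or the 5 smallest p-values among clones; 1 gene so named is not reported here. Promoter letters were read from RefSeq.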

Additional observations from a re-analysis of the deposited data

Results flagged for a closer look

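Of 81 sets of 4 libraries (9 genes in 9 groups), 4 held a library whose gap to the next, divided by the range of the group, was above Dixon's 95% critical value for 4 samples. Chance alone would give about 4.05. These were Bmp4 with clone N (0.954, replicate 2 at 68.2 CPM), Inhba in mono-culture (0.872, replicate 1 at 4.24 CPM), Fst with clone E (0.869, replicate 2 at 20.7 CPM) and Id1 with KPC1 (0.861, replicate 2 at 5.55 CPM).

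The effect of co-culture differed among the 7 clones for each of the 9 genes, by the F-test of edgeR on 6 contrasts. The adjusted p was 2.1e-09 for Bmp2, 8.6e-07 for Bmp4, 5.9e-07 for Grem1, 1.5e-07 for Inhba, 0.00042 for Fst, 4.0e-06 for Id1, 1.2e-07 for Id2, 1.6e-07 for Id3 and 3.2e-08 for Smad6, where 67.5% of all genes passed the same test.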

How the results depend on the processing

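The F-test called each member it was run on under every alternative. Apart from the 4 members called for the mean of the clones without mono-culture replicate 1 or 4 (7 with all libraries, lowest 4 and highest 8 over the 36 refits), the number of members called stayed within 1.5 times the main count in each comparison. Changes of sign occurred only where neither value passed the test. On log2(RPKM + 1) and log2(RPKM + 0.1) the log2 fold change was -0.073 and -0.095 for Id2 with clone E, -0.038 and -0.067 for Id2 with clone N, and -0.019 and -0.022 for Bmp4 with clone T. Without 1 library, Id2 ran from -0.11 to 0.38 with clone E, -0.069 to 0.49 with clone N, -0.59 to 0.20 with clone T and -0.23 to 0.014 for the mean of the clones, Bmp2 from -0.33 to 0.29 with clone H, Bmp4 from -0.31 to 0.050 with clone K and -0.041 to 0.20 with clone T, and Id1 from -0.012 to 0.34 with KPC1.

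Calls near the threshold were lost for Smad6 with clone E, Id2 with clone M, Id3 with clone T and Smad6 for the mean of the clones under no scaling beyond the library total and without a filter (adjusted p from 0.054 to 0.091), and the cause was not tested. In fits of only 8 libraries, Smad6 with clone V (-1.04, adjusted p = 0.052) and Id3 with clone T (0.97, adjusted p = 0.053) were lost and 7 further values passed at adjusted p from 0.00047 to 0.049. These were Bmp2 with clones E and V, Bmp4 with clone N, Grem1 with clone M, Id3 with clone H, and Smad6 with clones H and T. A minimum of 10 counts in every library removed Bmp2 and Fst. Replicate numbers did not pair co-cultures with mono-culture, since same-numbered deviations correlated at a median of -0.02 and 5 of 32 exceeded 0.1. Between co-cultures the median was 0.14 and 63 of 112 exceeded 0.1, with all 4 over 0.1 for 3 of 28 pairs of co-cultures (E with K, K with V, T with KPC1). A fit with the replicate block (pairing by number) changed 1 call, Id3 with clone T (0.90, adjusted p = 0.056), among the comparisons with mono-culture, of KPC1 with the clones and among clones. Between co-cultures the block, added after the data had been seen, gave 143 member calls in place of 134 (10 gained, 1 lost). In the 3 pairs above it changed 2, Inhba for K against E (given above) and Fst for KPC1 against T (-1.17, adjusted p = 0.045, against 0.076 without it). There the genes called rose from 774 to 1436 for KPC1 against T, from 1667 to 2482 for K against E and from 7918 to 8517 for V against K.

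Depth limits Bmp2 most, at 3 to 6 counts per library with clone V. PCR copies of a molecule are counted as separate reads, and 4 libraries per group limit every interval.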
